A study of Homo sapiens with 9 samples.

Results

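Condensin and cohesin are the ring-shaped protein complexes that fold and hold chromosomes, and 10 genes that encode their subunits or serve them are described here: SMC2, SMC4, NCAPD2, NCAPG and NCAPH of condensin I, SMC1A, SMC3, RAD21 and STAG2 of the cohesin ring, and ESCO2, which acetylates cohesin. They were taken by name, through their Ensembl identifiers, from the 58381 Ensembl genes listed for each library, and all 10 passed the filter on low values that left 13777 genes for testing. HK1, a human nasopharyngeal carcinoma cell line, was transfected for 48 h with siRNA at 100 nM, and total RNA was sequenced from 9 libraries. The groups were 3 libraries after an siRNA against E2F3, 3 after an siRNA against E2F1 and 3 after a control siRNA with no target. E2F1 and E2F3 are transcription factors that switch on genes of DNA synthesis and cell division. The labels give neither the sequences of the siRNAs nor whether each was a single duplex or a pool. Nor do they state that replicate libraries were made from independent cultures, so the spread behind every p-value here is that between libraries and may be technical.

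Condensin is built on a pair of long SMC proteins, SMC2 and SMC4, whose heads are bridged by a kleisin; in condensin I the kleisin is NCAPH, and NCAPD2 and NCAPG are the HEAT-repeat subunits that sit on it. It compacts chromosomes in mitosis. Cohesin is built the same way on SMC1A and SMC3, with RAD21 as kleisin and STAG2 or STAG1 as the HEAT-repeat subunit; it holds sister chromatids together from S phase to anaphase and forms chromatin loops in interphase. ESCO2 acetylates SMC3 during DNA replication, which makes cohesion stable, and separase later cuts RAD21 to release the sisters.

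Because the siRNAs were aimed at transcription factors, the starts of the genes were searched for their recognition sequences. RefSeq (GRCh38.p14) entries, each from 250 bases before a transcript start to 50 after it, matched 8 of the 10 genes with 13 starts. Both strands were searched for E2F-like sites (TTTCCCGC, TTTGGCGC, TTTCGCGC, TTTGCCGC, TTCCCGCC and TTGGCGCC, of which neighbours can overlap), for the CHR element TTTGAA, read by the MuvB complexes of mitotic genes, and for the CCAAT box, read by NF-Y. The 250 bases before the start are shown for 4 condensin I genes, the group that moved as a whole in a comparison described further on, and for the SMC1A start with an E2F-like site. Sequences run 5′ to 3′ on the gene's strand, and capitals mark the matches.
SMC4, first start, chr3:160399400-160399649, plus strand: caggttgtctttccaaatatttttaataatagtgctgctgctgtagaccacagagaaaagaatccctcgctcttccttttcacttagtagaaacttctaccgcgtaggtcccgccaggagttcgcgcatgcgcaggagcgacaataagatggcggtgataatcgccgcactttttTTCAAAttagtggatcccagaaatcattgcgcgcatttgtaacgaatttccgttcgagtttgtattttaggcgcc
NCAPD2, chr12:6493852-6494101, plus strand: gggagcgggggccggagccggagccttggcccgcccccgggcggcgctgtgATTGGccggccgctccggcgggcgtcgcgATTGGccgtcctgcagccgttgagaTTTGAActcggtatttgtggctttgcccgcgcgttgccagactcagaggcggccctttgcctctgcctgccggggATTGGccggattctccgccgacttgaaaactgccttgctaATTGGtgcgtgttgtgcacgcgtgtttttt
NCAPG, chr4:17810729-17810978, plus strand: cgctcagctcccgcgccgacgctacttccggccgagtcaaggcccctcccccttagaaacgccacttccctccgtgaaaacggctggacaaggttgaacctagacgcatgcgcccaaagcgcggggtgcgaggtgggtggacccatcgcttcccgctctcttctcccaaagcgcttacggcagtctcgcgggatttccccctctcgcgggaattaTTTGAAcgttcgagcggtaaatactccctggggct
NCAPH, chr2:96335516-96335765, plus strand: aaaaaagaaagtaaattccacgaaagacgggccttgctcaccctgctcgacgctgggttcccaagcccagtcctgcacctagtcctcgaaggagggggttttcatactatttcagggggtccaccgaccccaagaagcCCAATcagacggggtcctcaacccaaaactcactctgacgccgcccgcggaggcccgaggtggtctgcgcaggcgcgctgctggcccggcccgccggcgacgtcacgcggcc
SMC1A, second start, chrX:53422655-53422904, minus strand: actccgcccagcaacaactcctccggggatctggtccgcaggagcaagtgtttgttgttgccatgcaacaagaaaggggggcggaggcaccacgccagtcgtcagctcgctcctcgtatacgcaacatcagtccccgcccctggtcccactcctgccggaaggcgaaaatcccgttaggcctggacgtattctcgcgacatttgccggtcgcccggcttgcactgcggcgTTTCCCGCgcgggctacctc

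An E2F-like match lay near 2 of the 8 genes. SMC1A had TTTCCCGC 20 to 13 bases before its second start, and STAG2 had TTTGGCGC and, overlapping it, TTGGCGCC between 51 and 43 bases before the last of its 3 starts. A CHR match lay near 5 genes. It was on the gene's own strand in NCAPD2 (145 to 140 bases before the start) and NCAPG (35 to 30 bases), and on the opposite strand in SMC4 (75 to 70 bases before the first start), SMC3 (151 to 146 bases) and SMC2 (across the start). CCAAT boxes lay near 3 genes, with 4 in NCAPD2, all on the opposite strand, 1 in NCAPH, 112 to 108 bases before the start, and others in STAG2. Of all 35116 RefSeq promoter entries, 6.26% held an E2F-like match, 15.2% a CHR match and 34.6% a CCAAT box. Counted in the same way, by entry, 2, 5 and 4 of the 13 entries of these genes held such a match. The counts by gene are not on this footing, because genes with several starts had several chances of a match. A match describes letters only; binding was not measured. GENCODE 29 also lists transcripts of SMC4, NCAPD2, NCAPG and SMC1A that begin before or within the windows shown. The E2F-like matches of SMC1A and STAG2 lie after an earlier start of each gene, so they are not upstream of every transcript. Which start the cells used was not determined.

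**Figure D1:**
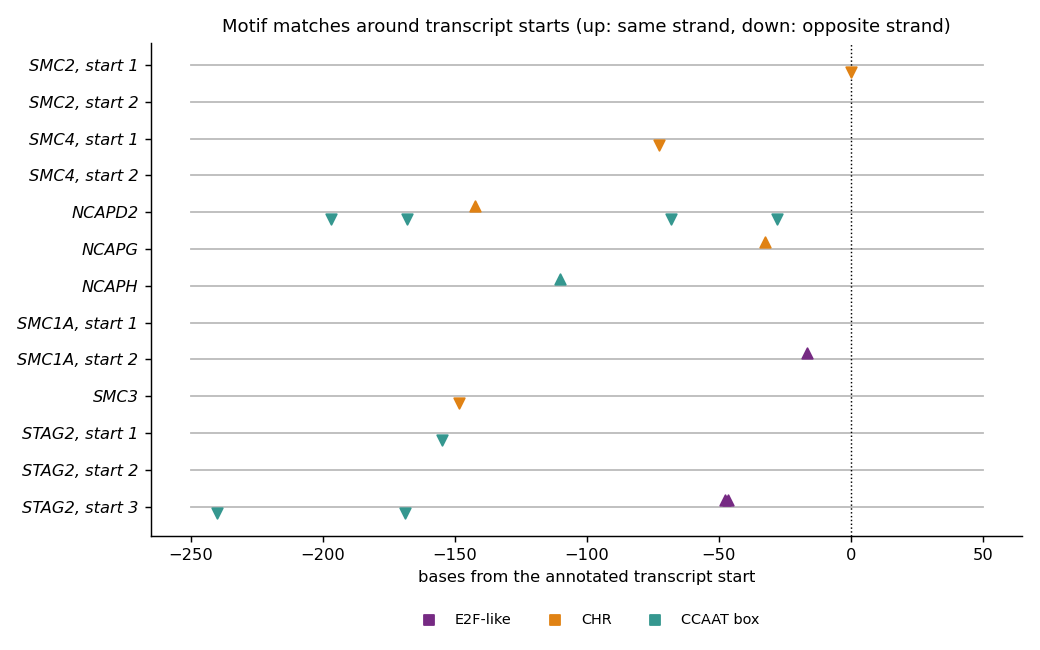
Matches to E2F-like sites (purple), the CHR element (orange) and the CCAAT box (teal) by distance in bases from each of 13 annotated transcript starts of 8 genes; triangles point up for the gene's own strand and down for the opposite strand. E2F-like matches are seen at 1 start of SMC1A and 1 start of STAG2, and the CHR element at 1 start each of 5 genes.

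In control cells the 10 genes spanned the upper part of the range, from the 55.7th percentile of tested genes (NCAPG) to the 92.5th (SMC4). Levels are in FPKM, in which fragments are divided by transcript length and by library size, so they can be compared only roughly between genes. They were not corrected for GC content here, and overlapping neighbours, described further on, may have added reads. SMC4 (chr3:160399274-160434962 in GENCODE 29 on GRCh38) averaged 102 ± 3.09 FPKM, SMC1A (chrX:53374149-53422728) 101 ± 4.24 and NCAPD2 (chr12:6493356-6531955) 96.3 ± 2.75, and neighbours in this order overlapped (SD, n = 3 each). STAG2 (chrX:123960212-124422664) at 87.8 ± 5.42 FPKM was below every NCAPD2 value and overlapped RAD21 at 81.2 ± 3.05 FPKM. A step of 2.16 times separated RAD21 from SMC3 (chr10:110567691-110604636) at 37.6 ± 1.82 FPKM. Below SMC3 came SMC2 (chr9:104094260-104141417) at 28.4 ± 1.20 FPKM and NCAPH (chr2:96335787-96373845) at 27.0 ± 1.36 FPKM, which overlapped each other. ESCO2 at 18.2 ± 1.19 FPKM and NCAPG (chr4:17810902-17844862) at 15.8 ± 0.280 FPKM were the lowest, and all ESCO2 values lay above all NCAPG values. SMC4 was at 3.59 times the mean FPKM of its partner SMC2, and SMC1A at 2.67 times that of its partner SMC3.

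Each siRNA lowered its own target. E2F1 was at 7.17, 7.95 and 7.33 FPKM after E2F1 siRNA and 19.85, 19.53 and 20.2 FPKM in control libraries (log2 change -1.30; limma adjusted p = 3.71e-07). E2F3 was at 12.61, 10.52 and 11.02 FPKM after E2F3 siRNA and 24.74, 27.17 and 24.42 FPKM in control libraries (log2 change -1.10, adjusted p = 3.58e-06). The other target was not called as fitted: E2F1 changed by 0.12 after E2F3 siRNA (adjusted p = 0.138) and E2F3 by 0.17 after E2F1 siRNA (adjusted p = 0.0906). E2F1 passed with a correction for GC content and length (0.23, adjusted p = 0.00433). E2F3 passed without E2F3 siRNA replicate 1 (0.17, adjusted p = 0.0463).

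**Figure D2:**
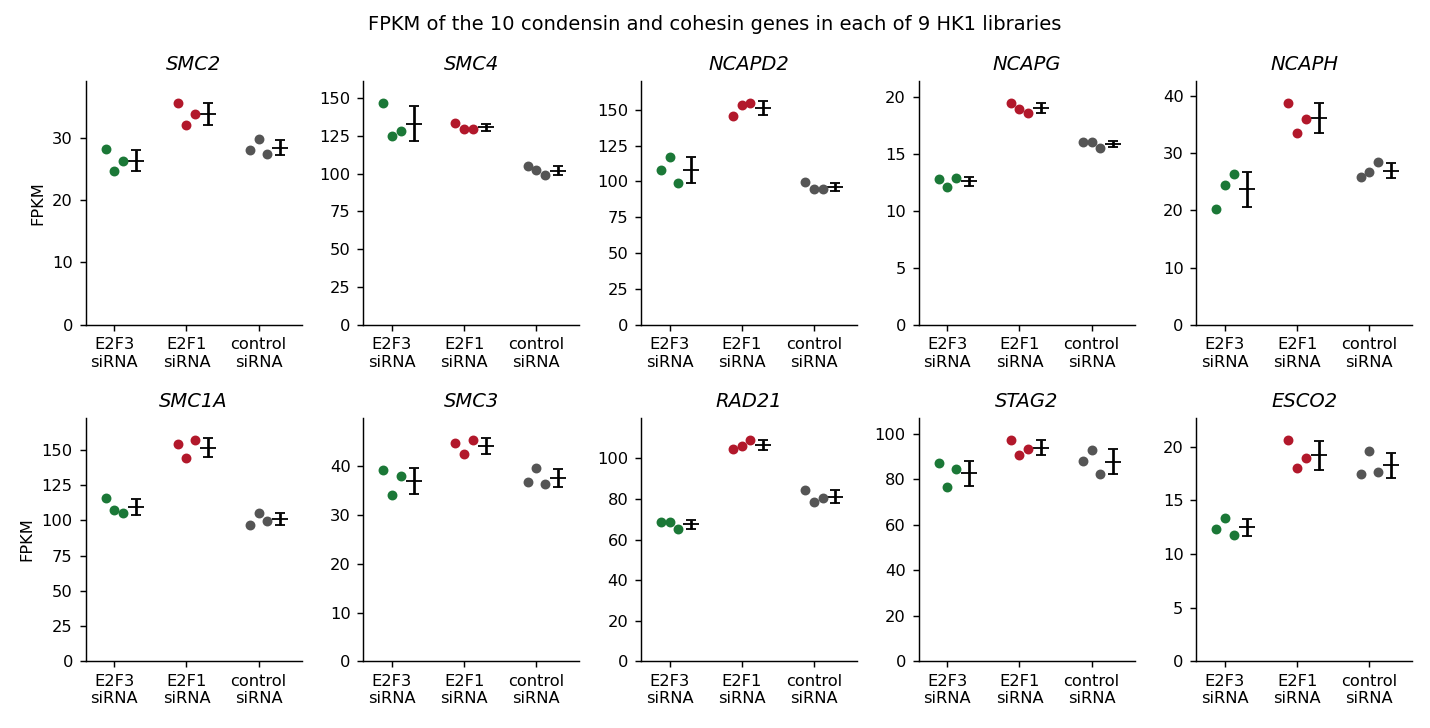
FPKM (linear axes from 0, a separate scale per gene) of the 10 genes in each library after E2F3 siRNA (green), E2F1 siRNA (red) or control siRNA (grey); the bars beside the points are the mean and SD of 3 libraries. The E2F1 siRNA libraries stand above the control libraries for 8 genes, and RAD21 after E2F3 siRNA is at 65.12 to 68.72 FPKM, below all other libraries. How many of all genes tested separate in this way was not counted.

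After E2F1 siRNA, condensin I rose as a whole: all 5 of its genes were higher than in control, by 0.24 to 0.64 on the log2 scale, as were 3 of the 4 genes of the cohesin ring. STAG2 and ESCO2 did not pass the test, and none of the 10 fell. For comparison, 20.5% of the 13777 genes tested were called higher and 17.3% lower (2830 and 2380 genes). Which direction had more calls turned with scaling, to 2531 higher and 2604 lower with RLE scaling and 2448 and 2648 with upper-quartile scaling, while the same number of the 10 genes, 8 higher and 0 lower, was called under both. The median log2 change was 0.30 over the 10 genes and 0.03 over all genes tested. Calls are at an adjusted p under 0.05 in limma on log2(FPKM + 1), a scale that understates the changes of low genes. Where groups are said not to overlap, the share of all genes tested with such separation was not counted. In bulk RNA, more RNA per cell and a larger share of cells in the stage that holds the RNA cannot be told apart.

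The largest change was in NCAPD2, a HEAT-repeat subunit of condensin I. It was at 145.36, 153.18 and 154.62 FPKM after E2F1 siRNA and 99.5, 94.93 and 94.58 FPKM in control libraries. The lowest library after E2F1 siRNA was thus well above the highest control library, and the gene rose by 0.64 (SE 0.06; adjusted p = 2.37e-05), or 1.57 times in mean FPKM. NCAPH, the kleisin, was at 38.78, 33.54 and 36.02 FPKM after E2F1 siRNA and 25.81, 26.68 and 28.47 FPKM in control libraries (log2 change 0.41, SE 0.09; adjusted p = 0.00633). The ATPase SMC4 was at 133.27, 129.47 and 129.56 FPKM after E2F1 siRNA and 105.13, 102.26 and 98.95 FPKM in control libraries (log2 change 0.35, SE 0.06; adjusted p = 0.00101). In both genes the groups did not overlap. NCAPG, which binds DNA together with NCAPH, was at 19.44, 18.92 and 18.58 FPKM after E2F1 siRNA and 16.0, 16.01 and 15.52 FPKM in control libraries (log2 change 0.25, SE 0.05; adjusted p = 0.00434). SMC2, the partner of SMC4, was at 35.57, 32.06 and 33.83 FPKM after E2F1 siRNA and 28.11, 29.77 and 27.44 FPKM in control libraries (log2 change 0.24, SE 0.06; adjusted p = 0.0127). The SMC2 groups stood apart as well, but its call was lost without E2F1 siRNA replicate 1 (log2 change 0.21; adjusted p = 0.0511).

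In the cohesin ring, SMC1A moved most. It was at 153.73, 143.81 and 156.9 FPKM after E2F1 siRNA and 96.88, 105.2 and 99.59 FPKM in control libraries, a rise of 0.59 on the log2 scale (SE 0.05; adjusted p = 1.96e-05). RAD21, the kleisin that separase cuts, was at 104.41, 105.89 and 109.09 FPKM after E2F1 siRNA and 84.52, 78.54 and 80.5 FPKM in control libraries (log2 change 0.39, SE 0.04; adjusted p = 7.90e-05). Neither gene had a library of one group within the range of the other. SMC3, the ATPase that ESCO2 acetylates, was at 44.73, 42.46 and 45.45 FPKM after E2F1 siRNA and 36.91, 39.72 and 36.31 FPKM in control libraries (log2 change 0.23, SE 0.06; adjusted p = 0.0159). This was the least firm of the calls: it was lost without control replicate 1 (log2 change 0.21; adjusted p = 0.0529), control replicate 3 (0.20; 0.0579) or E2F1 siRNA replicate 3 (0.21; 0.0544). STAG2, the HEAT-repeat subunit, was at 97.38, 90.89 and 93.32 FPKM after E2F1 siRNA and 88.29, 92.98 and 82.17 FPKM in control libraries, with overlap (log2 change 0.10, 95% interval -0.04 to 0.23; adjusted p = 0.243). With a correction for GC content and transcript length it passed (log2 change 0.12; adjusted p = 0.0316). ESCO2 was at 20.62, 17.99 and 18.95 FPKM after E2F1 siRNA and 17.45, 19.61 and 17.67 FPKM in control libraries, which also overlap (log2 change 0.07, 95% interval -0.10 to 0.23; adjusted p = 0.500).

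After E2F3 siRNA the 10 genes did not move together. ESCO2, NCAPG and RAD21 fell, SMC4 rose, and 6 did not pass the test. In number, 4 calls among 10 genes are near the share over all genes tested, 5179 of 13777. Of all genes tested, 21.1% were called higher and 16.4% lower in this comparison (2913 and 2266 genes, or 2419 and 2652 with RLE scaling), and the median log2 change was -0.10 over the 10 genes and 0.04 over all genes tested. Both comparisons use the same control libraries.

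ESCO2, the replication-coupled acetyltransferase, fell most. It was at 12.29, 13.34 and 11.79 FPKM after E2F3 siRNA and 17.45, 19.61 and 17.67 FPKM in control libraries, which is 0.68 times the control mean (log2 change -0.51, SE 0.07; adjusted p = 4.75e-04). NCAPG was at 12.78, 12.07 and 12.86 FPKM after E2F3 siRNA and 16.0, 16.01 and 15.52 FPKM in control libraries (log2 change -0.31, SE 0.05; adjusted p = 0.00124). RAD21 was at 68.44, 68.72 and 65.12 FPKM after E2F3 siRNA and 84.52, 78.54 and 80.5 FPKM in control libraries (log2 change -0.26, SE 0.04; adjusted p = 9.70e-04). All 3 genes had every E2F3 siRNA library below every control library. SMC4 went the other way, with 146.71, 124.67 and 128.25 FPKM after E2F3 siRNA and 105.13, 102.26 and 98.95 FPKM in control libraries (log2 change 0.38, SE 0.06; adjusted p = 7.59e-04). These 4 calls held at an adjusted p under 0.01, under each scaling and filter tried and without any 1 of the 9 libraries.

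The other 6 genes stayed short of the threshold. NCAPD2 came nearest, at 107.91, 116.8 and 98.91 FPKM after E2F3 siRNA and 99.5, 94.93 and 94.58 FPKM in control libraries (log2 change 0.16, 95% interval 0.03 to 0.29; adjusted p = 0.0568). It passed without E2F3 siRNA replicate 3, the lowest of its group (log2 change 0.22; adjusted p = 0.0123), with upper-quartile scaling (0.17; 0.0343) and with a filter of 5 FPKM (0.16; 0.0483). SMC1A was at 115.41, 107.34 and 105.25 FPKM after E2F3 siRNA and 96.88, 105.2 and 99.59 FPKM in control libraries, groups that just missed each other (log2 change 0.12; adjusted p = 0.0963). NCAPH was at 20.31, 24.46 and 26.38 FPKM after E2F3 siRNA and 25.81, 26.68 and 28.47 FPKM in control libraries (log2 change -0.19, 95% interval -0.39 to 0.02; adjusted p = 0.141). Its E2F3 siRNA libraries spread more widely than those of the other groups. SMC2 was at 28.16, 24.68 and 26.24 FPKM after E2F3 siRNA and 28.11, 29.77 and 27.44 FPKM in control libraries (log2 change -0.11; adjusted p = 0.210). SMC3 was at 39.22, 34.11 and 38.01 FPKM after E2F3 siRNA and 36.91, 39.72 and 36.31 FPKM in control libraries (log2 change -0.02; adjusted p = 0.810). STAG2 was at 87.07, 76.66 and 84.37 FPKM after E2F3 siRNA and 88.29, 92.98 and 82.17 FPKM in control libraries (log2 change -0.09; adjusted p = 0.294). In these 3 genes the groups overlap; correction for GC content and length brought SMC2 (log2 change -0.14; adjusted p = 0.0265) and STAG2 (-0.12; 0.0405) past the threshold.

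Set directly against each other, the knockdowns differed in 9 of the 10 genes, and all 9 were lower after E2F3 siRNA than after E2F1 siRNA. In this comparison 23.5% of all genes tested were called higher and 22.0% lower, and the median log2 difference was -0.48 over the 10 genes and 0.02 over all genes tested. RAD21 differed most, with 67.4 ± 2.0 FPKM after E2F3 siRNA and 106 ± 2.39 FPKM after E2F1 siRNA (SD, n = 3 each; log2 difference -0.65, SE 0.04; adjusted p = 1.90e-06 in limma). NCAPH followed with 23.7 ± 3.10 FPKM after E2F3 siRNA and 36.1 ± 2.62 FPKM after E2F1 siRNA (log2 difference -0.59; adjusted p = 5.98e-04). ESCO2 (-0.58; adjusted p = 1.58e-04) and NCAPG (-0.56; adjusted p = 2.13e-05) came next. The difference was -0.48 in NCAPD2 (adjusted p = 1.17e-04), -0.47 in SMC1A (adjusted p = 6.63e-05), -0.35 in SMC2 (adjusted p = 0.00143) and -0.25 in SMC3 (adjusted p = 0.00853). RAD21 and NCAPG were called on both sides of control, lower after E2F3 siRNA and higher after E2F1 siRNA.

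The exception was SMC4, which was at 133 ± 11.8 FPKM after E2F3 siRNA and 131 ± 2.17 FPKM after E2F1 siRNA (SD, n = 3 each; log2 difference 0.02, 95% interval -0.11 to 0.15; adjusted p = 0.776 in limma). It was the one gene of the 10 that was called higher in both comparisons with control. The call for STAG2 was the weakest (log2 difference -0.18; adjusted p = 0.0329). It was lost with upper-quartile scaling (-0.14; adjusted p = 0.0966), with no filter (adjusted p = 0.0793), and without E2F1 siRNA replicate 1 (log2 difference -0.16), E2F1 siRNA replicate 3 (-0.19), E2F3 siRNA replicate 2 (-0.13) or E2F3 siRNA replicate 3 (-0.20).

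**Figure D3:**
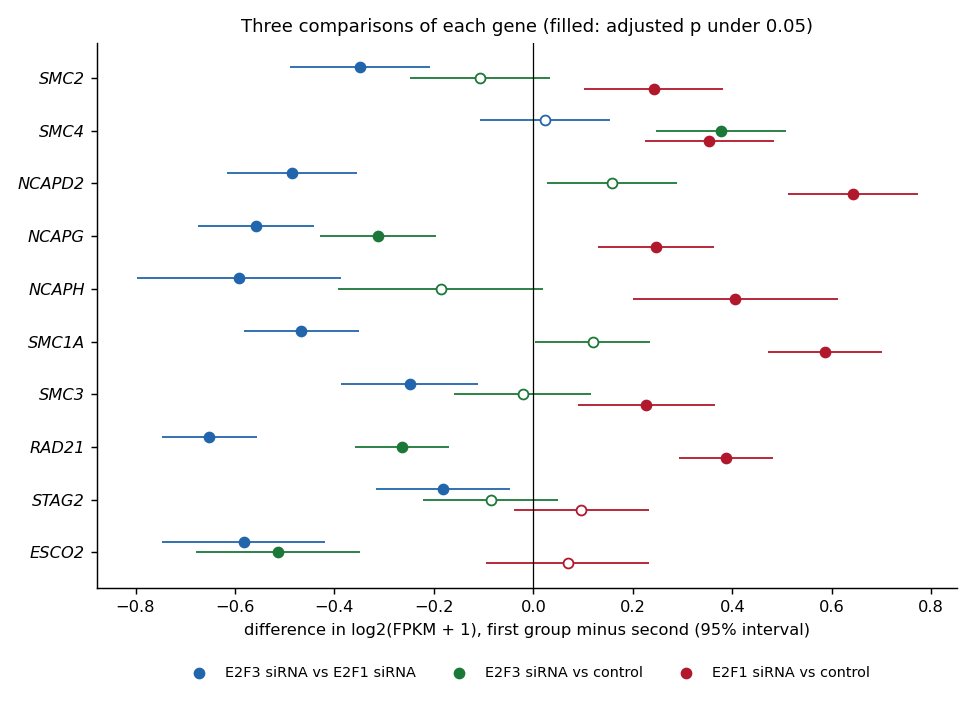
Differences in log2(FPKM + 1) of the 10 genes with 95% intervals from the limma model, for E2F3 siRNA against E2F1 siRNA (blue), E2F3 siRNA against control (green) and E2F1 siRNA against control (red); filled points have an adjusted p under 0.05. Red points are filled for 8 genes and all of those lie above 0, green points are filled for 4, and blue points are filled and below 0 for all genes but SMC4.

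Summed over its 5 genes, condensin I reached 304 ± 11.7 FPKM after E2F3 siRNA, 371 ± 3.09 FPKM after E2F1 siRNA and 269.7 ± 4.80 FPKM in control libraries (SD, n = 3 each). No group overlapped another, and each of the 3 comparisons had an exact permutation p = 0.1, two-sided, which is the smallest that 3 libraries against 3 can give. SMC4 and NCAPD2 make up most of this sum, and it was above control after E2F3 siRNA while NCAPG fell. The 4 genes of the cohesin ring summed to 297 ± 12.1 FPKM after E2F3 siRNA, 396 ± 11.5 FPKM after E2F1 siRNA and 307 ± 8.95 FPKM in control libraries. The cohesin sums after E2F3 siRNA and in control overlapped (exact permutation p = 0.3), while those after E2F1 siRNA lay apart from both others (exact permutation p = 0.1).

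Several subunits have a paralog that takes the same place, and the share of each in the summed FPKM of the pair shows how the balance stood. STAG2 and STAG1 are the alternative HEAT-repeat subunits of cohesin; STAG2 made up 88.3 ± 0.130% of the pair after E2F3 siRNA, 84.6 ± 0.409% after E2F1 siRNA and 88.7 ± 0.357% in control libraries. The E2F1 siRNA libraries lay at 85.0, 84.8 and 84.2%, below all the others, and STAG1 itself rose there by 0.56 (adjusted p = 1.63e-04) while STAG2 did not pass. NCAPD2 is matched in condensin II by NCAPD3; its share was 74.9 ± 1.78% after E2F3 siRNA, 76.1 ± 0.727% after E2F1 siRNA and 69.3 ± 0.728% in control libraries. Both knockdown groups were above every control library. NCAPG, matched by NCAPG2, had a share of 20.5 ± 0.161% after E2F3 siRNA, 23.6 ± 0.356% after E2F1 siRNA and 25.2 ± 0.243% in control libraries, with no overlap between any of the groups. NCAPH, matched by NCAPH2, had a share of 53.2 ± 2.05% after E2F3 siRNA, 56.5 ± 2.13% after E2F1 siRNA and 53.5 ± 2.84% in control libraries, and these overlapped (exact permutation p = 0.9, 0.3 and 0.2 for E2F3 siRNA against control, E2F1 siRNA against control and E2F3 siRNA against E2F1 siRNA). Apart from NCAPH and from NCAPD2 between the knockdowns (exact permutation p = 0.4), these paralog shares had an exact permutation p = 0.1 in every comparison.

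The partners of one ring were set against each other in the same way, a choice made after the values were seen. SMC4 made up 83.5 ± 0.441% of SMC2 and SMC4 after E2F3 siRNA, 79.5 ± 0.626% after E2F1 siRNA and 78.2 ± 0.728% in control libraries. The 3 E2F3 siRNA libraries were above the other 6. SMC1A made up 74.7 ± 1.21% of SMC1A and SMC3 after E2F3 siRNA, 77.4 ± 0.175% after E2F1 siRNA and 72.8 ± 0.459% in control libraries, in an order without overlap.

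**Figure D4:**
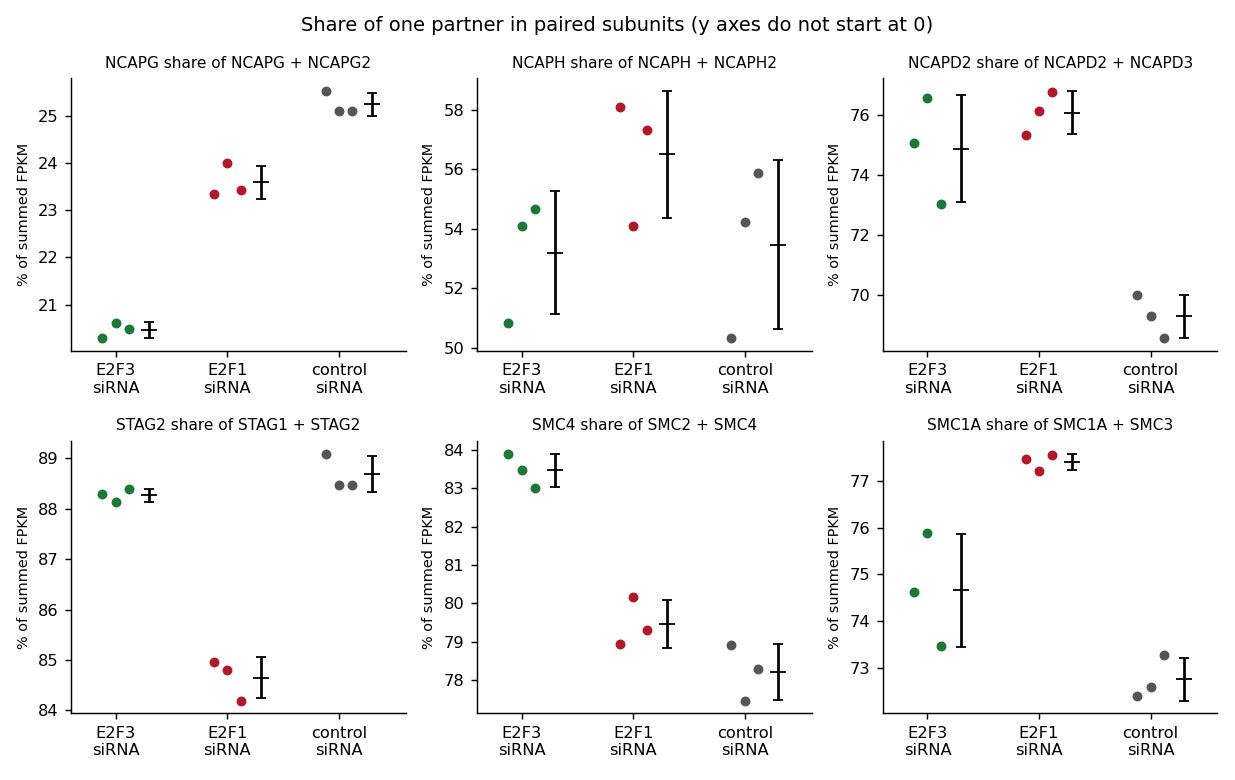
Share (%) of the first-named gene in the summed FPKM of a pair, per library, after E2F3 siRNA (green), E2F1 siRNA (red) or control siRNA (grey), with the mean and SD of 3 libraries beside the points; the axes do not start at 0. NCAPG takes its lowest share after E2F3 siRNA (20.5%), STAG2 after E2F1 siRNA (84.6%), and SMC4 takes its highest share of its pair after E2F3 siRNA (83.5%).

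The wider machinery of chromosome structure was described through 40 other genes in 8 role lists, of which 37 were tested; SMC1B, RAD21L1 and EID3 did not pass the filter. After E2F1 siRNA 19 of the 37 (51.4%, against 20.5% of all genes tested) were higher than in control, 4 (10.8%, against 17.3%) were lower and 14 did not pass, with a median log2 change of 0.21. After E2F3 siRNA 3 (8.11%, against 21.1%) were higher, 5 (13.5%, against 16.4%) were lower and 29 were not called, with a median of -0.03; the share called lower was near that of all genes. Directly compared, 6 (16.2%, against 23.5%) were higher after E2F3 siRNA, 20 (54.1%, against 22.0%) were lower and 11 were not called, with a median of -0.29. The 6 include REC8, which passed the filter mainly through its E2F3 siRNA libraries. Adjusted p-values in these lists are from the same limma fit over all 13777 genes.

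All 3 subunits particular to condensin II, which acts in the nucleus early in mitosis, were higher after E2F1 siRNA, against 20.5% of all genes tested. NCAPG2 rose by 0.38 (SE 0.05; adjusted p = 1.37e-04), NCAPH2 by 0.23 (adjusted p = 0.0171) and NCAPD3 by 0.15 (adjusted p = 0.0120). The NCAPH2 call was lost without control replicate 2 (log2 change 0.20), control replicate 3 (0.20) or E2F1 siRNA replicate 2 (0.21). NCAPD3 was at 35.86, 35.79 and 36.57 FPKM after E2F3 siRNA, 47.66, 48.02 and 46.82 FPKM after E2F1 siRNA and 42.64, 42.1 and 43.4 FPKM in control libraries. No group overlapped another there, and NCAPD3 fell after E2F3 siRNA (log2 change -0.24; adjusted p = 0.00102), as did NCAPG of condensin I. All 3 genes were lower after E2F3 siRNA than after E2F1 siRNA, by -0.40 (NCAPH2), -0.39 (NCAPD3) and -0.33 (NCAPG2).

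Of the other cohesin subunits, STAG1 was at 11.56, 10.33 and 11.09 FPKM after E2F3 siRNA, 17.24, 16.29 and 17.53 FPKM after E2F1 siRNA and 10.81, 12.11 and 10.71 FPKM in control libraries. It was the 1 tested gene of this list that passed after E2F1 siRNA (33.3%, against 20.5% of all genes tested called higher). Neither STAG1 nor STAG3 passed after E2F3 siRNA as fitted, where 21.1% of all genes tested were called higher and 16.4% lower. STAG3 passed there without control replicate 3 (log2 change 0.34, limma adjusted p = 0.0439). The meiotic subunits were low. The kleisin REC8 was at 1.7, 1.96 and 1.18 FPKM after E2F3 siRNA, 0.57, 0.44 and 0.79 FPKM after E2F1 siRNA and 0.5, 1.16 and 0.93 FPKM in control libraries. It passed the filter through the group where it is high, so its values are given as a description, with no test. STAG3 averaged 5.63 ± 0.142 FPKM after E2F3 siRNA and 4.25 ± 0.144 FPKM after E2F1 siRNA (log2 difference 0.34; adjusted p = 0.0306 in limma), a call lost without any 1 of these 6 libraries (log2 difference 0.32 to 0.36).

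Among loading and release factors, PDS5A, which regulates the removal of cohesin from DNA, was at 26.47, 25.62 and 25.69 FPKM after E2F3 siRNA, 43.41, 43.02 and 39.46 FPKM after E2F1 siRNA and 38.25, 39.48 and 38.05 FPKM in control libraries. It fell by 0.56 against control after E2F3 siRNA (adjusted p = 2.32e-05), and the direct difference was -0.67 (adjusted p = 4.06e-06). Its relative PDS5B rose after E2F1 siRNA (log2 change 0.50; adjusted p = 0.00692), and its difference between the knockdowns did not pass (-0.25; adjusted p = 0.113). The release factor WAPL was lower after E2F3 siRNA than after E2F1 siRNA (log2 difference -0.29; adjusted p = 0.00549). The loader genes NIPBL and MAU2 did not pass in any of the 3 comparisons as fitted. NIPBL passed without E2F3 siRNA replicate 2 after E2F3 siRNA (log2 change 0.21; adjusted p = 0.0318) and between the knockdowns (0.20; 0.0356), where it also passed with upper-quartile scaling (0.19; 0.0383). MAU2 passed without control replicate 3 after E2F3 siRNA (log2 change 0.30; adjusted p = 0.0386) and after E2F1 siRNA (0.28; 0.0494).

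In the list of cohesin acetylation and protection, 2 of 5 genes (40%, against 20.5% of all genes tested) were higher after E2F1 siRNA. Lower calls covered 1 gene after each siRNA (20%, against 17.3% after E2F1 siRNA and 16.4% after E2F3 siRNA), near the share of all genes. CDCA5 (sororin), which binds acetylated cohesin and keeps it on DNA, was at 32.17, 32.49 and 30.94 FPKM after E2F3 siRNA, 24.84, 22.3 and 24.38 FPKM after E2F1 siRNA and 37.66, 35.5 and 38.09 FPKM in control libraries. It fell in both comparisons with control, by 0.21 after E2F3 siRNA (adjusted p = 0.0128) and by 0.62 after E2F1 siRNA (adjusted p = 2.04e-05). Shugoshin SGO2, a protector of centromeric cohesin, rose by 0.58 after E2F1 siRNA (adjusted p = 7.19e-04). SGO1, the mitotic shugoshin, was lower after E2F3 siRNA than after E2F1 siRNA (log2 difference -0.33; adjusted p = 0.00546). HDAC8, the SMC3 deacetylase, was called higher after E2F1 siRNA (log2 change 0.21; adjusted p = 0.0219) and lost that call without control replicate 2 (0.21), control replicate 3 (0.16), E2F1 siRNA replicate 1 (0.19) or E2F1 siRNA replicate 3 (0.19). Of the cleavage genes, PTTG1 (securin), the inhibitor of separase, was at 258.45, 294.05 and 265.25 FPKM after E2F3 siRNA, 455.27, 462.46 and 407.6 FPKM after E2F1 siRNA and 297.37, 265.24 and 305.15 FPKM in control libraries. It rose by 0.61 after E2F1 siRNA (adjusted p = 1.14e-04). Separase itself, ESPL1, fell by 0.35 after E2F3 siRNA (adjusted p = 0.0113).

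The SMC5/6 complex is another SMC ring, which acts in DNA repair. In its list 4 of 7 tested genes (57.1%, against 20.5% of all genes tested) were higher after E2F1 siRNA. Lower calls covered 1 gene (14.3%, against 17.3%), near the share of all genes. The non-SMC element gene NSMCE4A was higher after E2F1 siRNA (log2 change 0.33, limma adjusted p = 0.00426). NSMCE3 (0.31; adjusted p = 0.0138) and the SMC-related SMCHD1 of the inactive X chromosome (0.34; adjusted p = 0.0160) were called higher too, and each lost its call without 1 library: NSMCE3 without E2F1 siRNA replicate 3 (0.27) and SMCHD1 without control replicate 3 (0.28). SMC6 was lower after E2F3 siRNA than after E2F1 siRNA (log2 difference -0.33; adjusted p = 0.00681). NSMCE1, a RING-finger subunit, was at 40.09, 47.29 and 44.59 FPKM after E2F3 siRNA, 32.54, 28.46 and 29.44 FPKM after E2F1 siRNA and 33.39, 35.93 and 35.07 FPKM in control libraries. It rose after E2F3 siRNA (log2 change 0.33; adjusted p = 0.00540), and its lower call after E2F1 siRNA was marginal (log2 change -0.20; adjusted p = 0.0476). That call was lost in 6 of the 9 fits that left out a library (log2 change -0.23 to -0.16), with no filter (adjusted p = 0.112) and with a replicate term in the model (adjusted p = 0.0790).

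Cohesion factors that travel with the replication fork had mixed calls. After E2F1 siRNA 3 of 7 (42.9%, against 20.5% of all genes tested) were higher and 2 (28.6%, against 17.3%) were lower. After E2F3 siRNA 2 (28.6%, against 21.1%) were higher and 1 (14.3%, against 16.4%) was lower, near the shares of all genes. TIMELESS and TIPIN form 1 complex that protects the fork. TIMELESS was at 12.2, 12.82 and 10.16 FPKM after E2F3 siRNA, 23.32, 23.09 and 23.87 FPKM after E2F1 siRNA and 18.43, 19.64 and 19.84 FPKM in control libraries. TIPIN was at 26.99, 23.99 and 21.98 FPKM after E2F3 siRNA, 34.95, 33.66 and 35.13 FPKM after E2F1 siRNA and 20.5, 18.41 and 20.31 FPKM in control libraries. TIMELESS fell after E2F3 siRNA (log2 change -0.68; adjusted p = 1.27e-04) while TIPIN rose (0.28; adjusted p = 0.0139). After E2F1 siRNA TIPIN rose by 0.78 (adjusted p = 3.30e-05) and TIMELESS was called higher (0.27; adjusted p = 0.0232), a call lost without control replicate 1 (0.24), E2F1 siRNA replicate 1 (0.27) or E2F1 siRNA replicate 3 (0.25), and with no filter (adjusted p = 0.0577). The alternative clamp loader RFC-CTF18 loads the replication clamp during cohesion. Of its listed subunits, CHTF8 and DSCC1 were lower after E2F1 siRNA, and CHTF18 was not called (log2 change 0.25, limma adjusted p = 0.188). CHTF8 was at 113.62, 110.85 and 106.34 FPKM after E2F3 siRNA, 71.35, 71.63 and 68.65 FPKM after E2F1 siRNA and 100.58, 103.35 and 100.74 FPKM in control libraries. It fell after E2F1 siRNA (log2 change -0.52; adjusted p = 7.06e-06), and DSCC1 fell as well (-0.40; adjusted p = 0.00671). The higher call of CHTF8 after E2F3 siRNA was weak (log2 change 0.12; adjusted p = 0.0390). It was lost in 6 of the 9 fits that left out a library (0.10 to 0.13), with RLE scaling (0.08) and in a fit of the 6 libraries compared (adjusted p = 0.0610).

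In the list of chromosome scaffold genes and condensin partners 4 of 5 (80%, against 20.5% of all genes tested) were higher after E2F1 siRNA. None passed after E2F3 siRNA, where 21.1% of all genes tested were called higher and 16.4% lower. MKI67, the coat protein of mitotic chromosomes, was at 31.67, 30.62 and 31.0 FPKM after E2F3 siRNA, 51.41, 52.73 and 51.1 FPKM after E2F1 siRNA and 31.5, 32.14 and 30.79 FPKM in control libraries. It rose by 0.70 after E2F1 siRNA (SE 0.04; adjusted p = 1.60e-06). CTCF, the insulator protein at which cohesin loops stop, rose by 0.52 (adjusted p = 3.75e-05), and topoisomerase TOP2A, which works with condensin, by 0.41 (adjusted p = 8.56e-05). The chromokinesin KIF4A was lower after E2F3 siRNA than after E2F1 siRNA (log2 difference -0.42; adjusted p = 1.81e-04), as were MKI67 (-0.72) and TOP2A (-0.46).

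**Figure D5:**
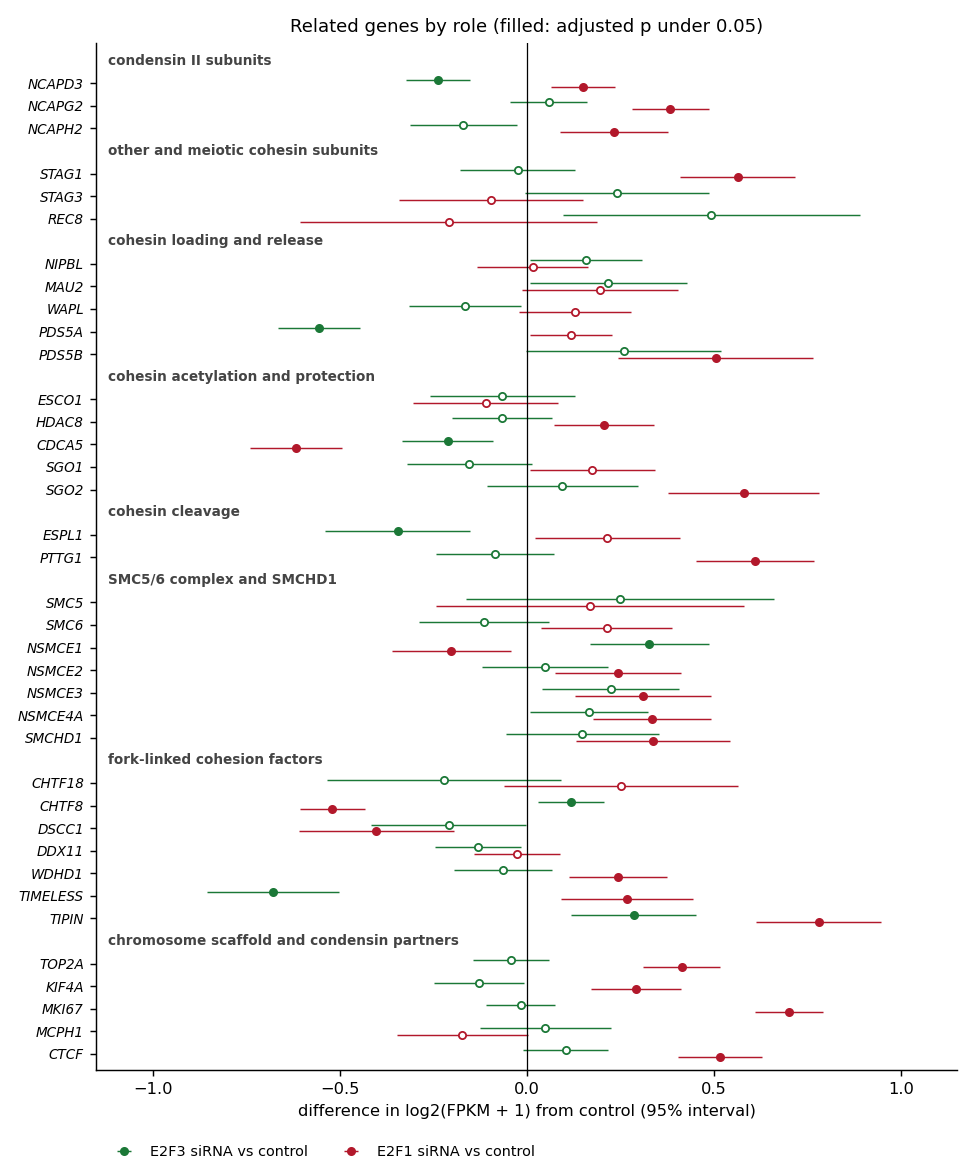
Differences from control in log2(FPKM + 1), with 95% intervals from the limma model, of the 37 tested related genes grouped by role, after E2F3 siRNA (green) and E2F1 siRNA (red); filled points have an adjusted p under 0.05. Red points are filled above 0 for 19 genes and below 0 for 4, green points above 0 for 3 and below 0 for 5.

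The genes whose pattern over the 9 libraries was most like that of condensin I were searched among 9421 other protein-coding genes of at least 5 FPKM on average. They were TOP2A (Pearson r 0.993), PAPOLA (0.992), TPX2 (0.990), MKI67 (0.990) and STAG1 (0.988). The mitotic spindle factor TPX2 averaged 119 FPKM after E2F3 siRNA, 171 FPKM after E2F1 siRNA and 114 FPKM in control libraries. Most like the cohesin ring were ASPM (0.987), SUZ12 (0.987), DNAJC2 (0.986), BTBD1 (0.985) and SMC2 of condensin (0.985). ESCO2 had other companions, XBP1 (0.984), FGFBP1 (0.982), ARCN1 (0.979), SMIM20 (0.978) and DDX50 (0.978). XBP1 averaged 24.7 FPKM after E2F3 siRNA, 35.4 FPKM after E2F1 siRNA and 33.6 FPKM in control libraries. These correlations describe 9 libraries in 3 groups that share a scaling, and the group means carry them.

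Some of the genes overlap a neighbour on the opposite strand, and no source used here states whether counting used strand, so reads of the pair may have been mixed. MRPL51 next to NCAPD2 averaged 142 ± 8.39 FPKM after E2F3 siRNA, 149.9 ± 15.9 FPKM after E2F1 siRNA and 122 ± 6.97 FPKM in control libraries (SD, n = 3 each). Like NCAPD2 it was called higher after E2F1 siRNA (log2 change 0.29; limma adjusted p = 0.0140) and not after E2F3 siRNA (0.21; adjusted p = 0.0523). TRIM59 next to SMC4 averaged 12.4 FPKM after E2F3 siRNA, 16.0 FPKM after E2F1 siRNA and 11.8 FPKM in control libraries; like SMC4 it was called higher after E2F1 siRNA (log2 change 0.42; adjusted p = 6.82e-04), but not after E2F3 siRNA (0.07; adjusted p = 0.396). UTP23 next to RAD21 was called higher against control after both siRNAs (log2 change 0.29 after E2F3 siRNA and 0.40 after E2F1 siRNA), whereas RAD21 was higher after E2F1 siRNA and lower after E2F3 siRNA. CCDC25 next to ESCO2 fell by 0.60 after E2F1 siRNA and was at 0.21 after E2F3 siRNA (adjusted p = 0.0540), while ESCO2 did not pass after E2F1 siRNA and fell after E2F3 siRNA. PBK, which also overlaps ESCO2 and was above it in level, averaged 42.0 FPKM after E2F3 siRNA, 45.7 FPKM after E2F1 siRNA and 45.8 FPKM in control libraries, and passed in no comparison. IFT80 next to SMC4 averaged no more than 15.9 FPKM in any group and passed in none, and LCORL next to NCAPG no more than 3.45 FPKM, with a higher call after E2F3 siRNA than after E2F1 siRNA (log2 difference 0.52; adjusted p = 0.0395). Their part in the results was not tested.

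All 8 epithelial and squamous marker genes were above 1 FPKM in each library, and of 10 markers of other cell types only COL1A1 was, while 4 were at 0 in at least 1 library. The epithelial markers summed to 1272 to 1354 FPKM after E2F3 siRNA, 1346 to 1431 FPKM after E2F1 siRNA and 1968 to 2006 FPKM in control libraries. Not all of these fell: EPCAM averaged 177 FPKM after E2F3 siRNA, 195 FPKM after E2F1 siRNA and 175 FPKM in control libraries. The markers of other cell types summed to 14.0 to 17.2 FPKM after E2F3 siRNA, 19.4 to 21.0 FPKM after E2F1 siRNA and 15.0 to 16.0 FPKM in control libraries. Most of this sum is COL1A1, which averaged 14.0, 17.9 and 12.8 FPKM in the same order. The part of these markers in the results was not tested. How many reads each library held is not stated in the labels. Relative to control replicate 1, the step size of low values gave a depth of 0.978 to 0.987 in the E2F3 siRNA libraries, 0.897 to 1.14 in the E2F1 siRNA libraries and 0.852 to 1.21 in the control libraries.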

How the data were processed

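The files deposited by the authors hold FPKM per gene, per the file headers, for 9 libraries (3 groups of 3). The submitters' processing notes name GRCh38 and the tools HISAT2, TopHat, HTSeq, DESeq and Trimmomatic, with neither versions nor roles. Of 59107 entries per file, 12 held text and 726 were assembled loci; 56933 identifiers matched GENCODE 29 exactly, 1328 without their version and 120 not at all. FPKM are not counts, so log2(FPKM + 1) was fitted, for genes that reached 1 FPKM in 3 or more libraries, with limma 3.58.1 (trend) in R 4.3.3, with a mean per group over all 9 libraries. Two-sided p-values were adjusted by Benjamini-Hochberg across the 13777 genes, and the threshold was 0.05. Sums and shares were compared by an exact permutation test (Python 3.11.15, scipy 1.17.1). The depth of the libraries is known only relative to each other, so no counting interval is given. No pair of libraries shared more than 0.726% of its values.

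The 10 genes and all lists were chosen with earlier results of these data known. Named genes are these 10, the siRNA targets and the 3 called genes of largest change per role list and comparison. The 5 closest patterns by Pearson r are named as well. NIPBL, MAU2, CHTF18, markers and overlapping neighbours are named besides, where a count, sum, complex or shared locus calls for it. Alternatives were RLE or upper-quartile scaling, no filter or one of 5 FPKM, a pseudocount of 0.1, only the 6 libraries compared, a replicate term, a loess correction (span 0.3) for GC content and length, an adjusted p under 0.01 and leaving out each library. The fit was also run on simulated data with independent noise, as a check of the code that says nothing about the calls reported here.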

Additional observations from a re-analysis of the deposited data

Results flagged for a closer look

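For 6 genes the effects of the siRNAs were called in opposite directions against control (limma adjusted p under 0.05). All 6 also passed the direct test between the siRNAs, which follows from the opposite calls in the same fit and adds no support. How many of all genes tested had such opposite calls was not counted. Values are log2 differences of E2F3 siRNA minus E2F1 siRNA. RAD21 differed by -0.65 and NCAPG by -0.56, both lower after E2F3 siRNA and higher after E2F1 siRNA than in control. NCAPD3 (-0.39) and TIMELESS (-0.95) had the same order, and for TIMELESS the higher call after E2F1 siRNA was lost without any of 3 single libraries. NSMCE1 (0.53) and CHTF8 (0.64) had the opposite order, each with 1 of its calls against control lost in 6 of the 9 fits that left out a library.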

How the results depend on the processing

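Depth is unknown, precision rests on 3 libraries a group, and sums and shares cannot reach p under 0.05. Over the alternatives tried, 6 to 9 of the 10 genes were called after E2F1 siRNA (8 as reported; 7 to 8 when a library was left out), 4 to 6 after E2F3 siRNA (4; 4 to 5) and 8 to 9 between the knockdowns (9; 8 to 9). No call of the 10 genes changed direction. Of the related genes, 23 were called after E2F1 siRNA and 15 at an adjusted p under 0.01 (12 higher, 3 lower). After E2F3 siRNA 8 were called, 4 at an adjusted p under 0.01 (1 higher, 3 lower) and 14 with the correction for GC content and length (4 higher, 10 lower); the cause of the rise to 14 was not tested. Without a library the related genes called ranged from 19 to 24 after E2F1 siRNA, 7 to 11 after E2F3 siRNA and 23 to 27 between the knockdowns. Of all genes, 5179 were called after E2F3 siRNA and 3244 at an adjusted p under 0.01 (1723 higher, 1521 lower). The correction for GC content and length gave 5303 there (2705 higher, 2598 lower). After E2F1 siRNA 5210 of all genes were called and 3493 at an adjusted p under 0.01 (1849 higher, 1644 lower). The NCAPH share after E2F3 siRNA was -0.27 points from control and -1.84 to 0.923 when a library was left out, turning to 0.902 without E2F3 siRNA replicate 1, 0.109 without control replicate 2 and 0.923 without control replicate 3, so it has no stable direction. RLE scaling put the median of all genes at 0.00 in both comparisons with control and upper-quartile scaling moved it by less than 0.1. Libraries with the same number did not deviate together (r -0.106 to 0.112 over 9 pairs), so the numbers are not taken to pair them; with a replicate block 8, 4 and 9 of the 10 genes were called after E2F1 siRNA, after E2F3 siRNA and between the knockdowns, and 4936, 4871 and 5982 of all genes, against 5210, 5179 and 6274 without it. Over named genes, the block ended the call of NSMCE1 after E2F1 siRNA.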
